A study of Homo sapiens with 12 samples.

Results

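The response of MDA-MB-231 cells to TGFβ was measured as the difference between 3 libraries of cells given TGFβ for 48 h and 3 libraries of untreated cells, out of 12 libraries in the series. MDA-MB-231 is a widely used human cell line from a triple-negative breast tumour, grown for every group in DMEM with 10% FBS. The untreated group received neither agent, and for both agents the dose was not given in the sources used here. Remaining libraries held cells given alisertib, a drug that blocks Aurora A, a kinase of mitosis, without TGFβ (3 libraries) or with it (3 libraries), and they serve here as a second TGFβ comparison on other libraries. The genes described are all those passing a filter on low counts, 20571 of the 57773 in the table. They were read through 96 gene families in 15 themes, chosen to lie mostly outside the SMAD target, epithelial-mesenchymal, matrix, mitosis and cholesterol genes. Some families touch these, such as collagen-modifying enzymes, glycan enzymes and splicing regulators of epithelial and mesenchymal cells. The families had 5226 entries in the table, of which 3856 were tested, and 24 members sat in more than 1 family.

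TGFβ is a secreted growth factor that binds a pair of serine-threonine kinase receptors, which phosphorylate SMAD proteins that enter the nucleus and act with other transcription factors. The same receptors also feed small GTPase, phosphoinositide 3-kinase and MAP kinase signalling. In epithelial tumour cells the factor is known for slowing proliferation and for raising migration, matrix deposition and mesenchymal character.

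The libraries matched their label in high mesenchymal-type markers and near absence of the ESR1 and PGR hormone receptor transcripts. The markers VIM, CD44, EGFR, MSN, CAV1 and AXL summed to 5470 to 5680 CPM (counts scaled to library size with TMM factors) in untreated libraries and 7130 to 7360 CPM with TGFβ. Within that sum CAV1 and AXL fell, from means of 931 to 578 and from 938 to 633 CPM. The estrogen receptor gene ESR1 and the progesterone receptor gene PGR had 5 and 2 counts in the 6 libraries together. Other genes of the hormone receptor and luminal list were present. Untreated and TGFβ means were 278 and 312 CPM for KRT8, 320 and 290 for KRT18, 75.2 and 99.1 for XBP1, and 65.1 and 66.0 for ERBB2. GATA3, of the same list, fell from a mean of 7.08 to 3.65 CPM, and SPDEF had means of 0.079 and 0.159 CPM. FOXA1 and TFF1 stayed below 0.1 CPM. Total counts were 93701658 to 100328721 per untreated library and 110282980 to 118220032 per TGFβ library. Untreated library 1 and TGFβ library 6 stood apart from their partners. Their deviations from the group mean were the largest in size of their groups (root mean square 0.191 against 0.106 and 0.110, and 0.110 against 0.0632 and 0.0750, log2 scale). Across 11083 genes these deviations correlated with GC content at -0.726 and -0.754 (Spearman), and those of the partners at 0.507 to 0.805. Of markers of other cell types, 8 fibroblast genes summed to 24.4 to 31.7 CPM without and 181 to 214 CPM with TGFβ, carried by COL1A1, COL1A2 and PDGFRB while DCN and THY1 stayed below 0.1 CPM. The 10 leukocyte genes summed to 45.7 to 60.6 and 72.6 to 80.7 CPM, mostly CD68. The endothelial genes summed to 12.7 to 15.2 and 23.4 to 26.1 CPM, mostly ESAM, with CLDN5 at 0.

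Among all tested genes 7940 (38.6%) were called changed, meaning an adjusted p under 0.05 in edgeR's quasi-likelihood test (Benjamini-Hochberg, all 20571 genes). Of these 3796 (18.5%) were higher and 4144 (20.1%) lower, and 2241 (10.9%) differed at least 2-fold, 5.48% upward and 5.41% downward. The median log2 fold change of all tested genes was -0.01. Across 19649 genes with a known GC content the log2 fold change correlated with that content at 0.244 (Spearman). How far the family medians go with GC content is not reported here. Counts of family members given below are to be read against these shares of all tested genes. The families held 1805 called members (46.8% of those tested), 490 of them at least 2-fold. Genes of the cell surface and of signalling from it had the highest shares past 2-fold: 30.8% for cell surface families, 24.0% for developmental signalling, 23.5% for G-protein signalling and 22.2% for immune signalling. Machinery shared by all cells had the lowest shares, at 5.41% for protein turnover and folding, 3.73% for chromatin and 1.33% for RNA and translation. Without the protocadherins, many of whose clustered members share exons, the cell surface share was 22.5% (27 of 120), below developmental and G-protein signalling. That count sums over families, so a member shared between families counts in each. Immune signalling leaned to falls, with 9 members at least 2-fold higher and 23 at least 2-fold lower.

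**Figure D1:**
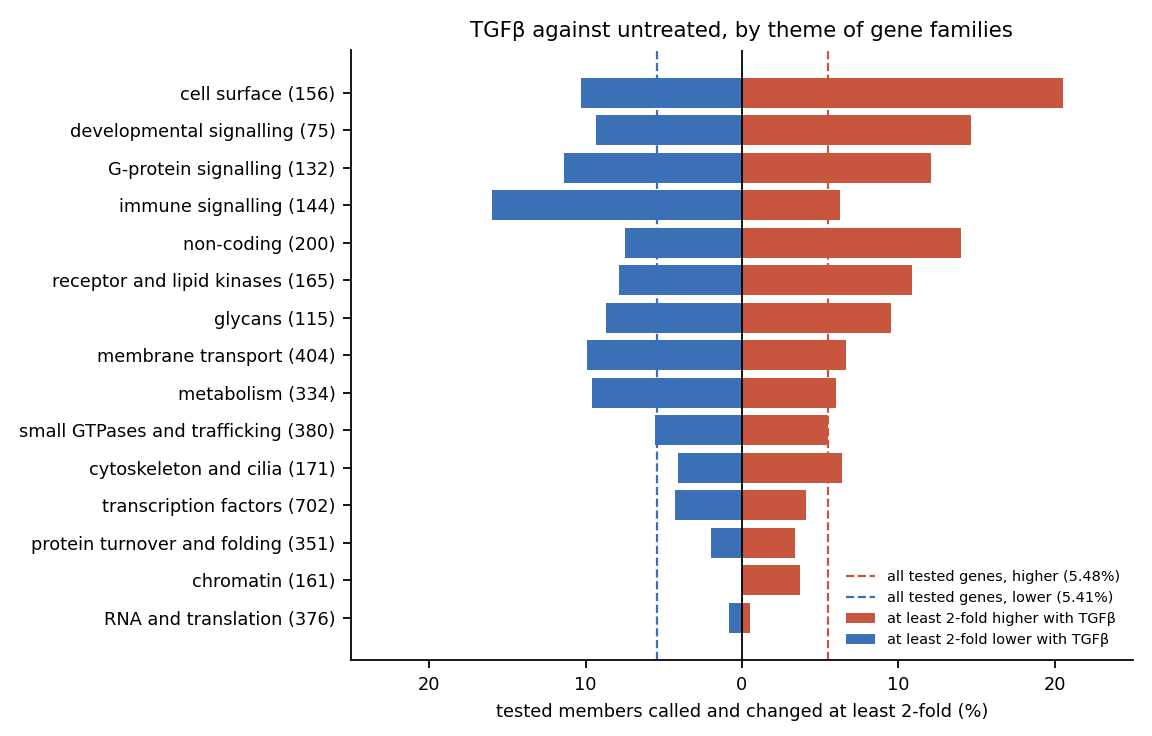
Share of tested members called and changed at least 2-fold in TGFβ against untreated libraries, for 15 themes of gene families (number tested in brackets), with bars to the right for higher and to the left for lower levels and dashed lines for all 20571 tested genes (5.48% and 5.41%). Cell surface families have the longest bar to the right and immune signalling the longest to the left, and RNA and translation families stay near 0.

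Among family members of at least 20 CPM in the higher group that have a promoter entry and lie on the autosomes considered, the 3 largest rises and 3 largest falls came from several families. RRAD and CSF2RA, described further on, lie outside that choice and changed more than some of these 6. DCLK1, a microtubule-binding kinase, had 0.782, 0.62 and 0.782 CPM in untreated libraries and 28.1, 27.8 and 30.1 CPM with TGFβ. PIK3IP1, a membrane protein that inhibits phosphoinositide 3-kinase, went from 1.87, 2.81 and 2.88 to 26.5, 29.2 and 25.9 CPM. SPHK1, the kinase that makes sphingosine 1-phosphate, went from 2.4, 3.21 and 3.12 to 29.4, 30.4 and 22.5 CPM. These were rises of 5.30 ± 0.10, 3.43 ± 0.15 and 3.24 ± 0.20 (SE) on the log2 scale. In the other direction, the adhesion receptor GPR110 (current symbol ADGRF1) had 118, 105 and 102 CPM in untreated and 12.4, 10.9 and 11.3 CPM in TGFβ libraries. DNAH2, an axonemal dynein heavy chain, had 118, 141 and 145 against 16.5, 17.1 and 15.8 CPM. LOXL4, a lysyl oxidase that cross-links collagen and elastin, had 144, 181 and 175 against 28.2, 28.4 and 27.3 CPM. Their log2 fold changes were -3.23 ± 0.10, -3.03 ± 0.09 and -2.58 ± 0.10. Being called and having no overlap between the groups were further conditions of that choice.

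The promoter windows of these 6 genes are shown because they mark the ends of the response within that choice. Each runs from 250 bases before to 50 after the first start that RefSeq lists for the gene, in GRCh38.p14, 5′ to 3′ on the gene's strand. Capitals mark CAGAC or its reverse complement GTCTG, a short motif that SMAD proteins bind, and TGACTCA or its reverse complement TGAGTCA, the motif of AP-1 factors. The motifs do not overlap each other in these windows. Which start these cells used was not measured.
DCLK1, chr13:36131890-36132189 (minus strand): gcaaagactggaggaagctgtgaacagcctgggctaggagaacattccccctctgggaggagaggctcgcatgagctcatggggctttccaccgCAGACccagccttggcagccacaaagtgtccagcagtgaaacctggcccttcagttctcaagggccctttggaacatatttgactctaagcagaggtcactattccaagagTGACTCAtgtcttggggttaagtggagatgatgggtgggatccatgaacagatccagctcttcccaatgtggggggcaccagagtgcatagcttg
PIK3IP1, chr22:31292485-31292784 (minus strand): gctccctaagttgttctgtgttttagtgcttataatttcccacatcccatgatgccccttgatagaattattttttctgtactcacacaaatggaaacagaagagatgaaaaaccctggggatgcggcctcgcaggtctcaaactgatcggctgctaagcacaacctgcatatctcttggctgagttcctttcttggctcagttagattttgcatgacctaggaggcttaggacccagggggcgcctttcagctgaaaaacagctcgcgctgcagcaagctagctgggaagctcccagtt
SPHK1, chr17:76382954-76383253 (plus strand): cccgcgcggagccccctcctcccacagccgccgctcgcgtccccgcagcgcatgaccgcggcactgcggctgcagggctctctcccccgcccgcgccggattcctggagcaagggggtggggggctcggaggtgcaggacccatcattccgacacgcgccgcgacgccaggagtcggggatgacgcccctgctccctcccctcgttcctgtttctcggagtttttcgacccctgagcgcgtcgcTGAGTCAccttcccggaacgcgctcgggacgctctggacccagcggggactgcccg
GPR110, chr6:47042283-47042582 (minus strand): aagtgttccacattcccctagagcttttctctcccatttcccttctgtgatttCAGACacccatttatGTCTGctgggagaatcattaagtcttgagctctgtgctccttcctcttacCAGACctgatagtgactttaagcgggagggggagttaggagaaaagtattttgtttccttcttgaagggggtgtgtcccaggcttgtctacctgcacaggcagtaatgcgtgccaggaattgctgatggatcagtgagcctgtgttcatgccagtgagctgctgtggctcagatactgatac
DNAH2, chr17:7717494-7717793 (plus strand): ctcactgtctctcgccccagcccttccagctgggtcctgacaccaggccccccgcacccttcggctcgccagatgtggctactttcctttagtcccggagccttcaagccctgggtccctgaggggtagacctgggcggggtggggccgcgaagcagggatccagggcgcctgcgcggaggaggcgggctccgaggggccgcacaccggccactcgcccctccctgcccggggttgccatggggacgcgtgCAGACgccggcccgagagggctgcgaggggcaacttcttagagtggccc
LOXL4, chr10:98268145-98268444 (minus strand): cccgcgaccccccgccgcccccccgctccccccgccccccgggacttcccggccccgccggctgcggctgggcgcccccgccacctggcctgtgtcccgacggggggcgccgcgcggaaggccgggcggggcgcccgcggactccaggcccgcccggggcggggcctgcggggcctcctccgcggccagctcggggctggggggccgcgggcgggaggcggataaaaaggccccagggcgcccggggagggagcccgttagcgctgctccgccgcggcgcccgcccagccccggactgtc
The DCLK1 window held 1 match of each motif, the SPHK1 window 1 AP-1 match, the GPR110 window 3 CAGAC matches and the DNAH2 window 1, with none of either in the windows of PIK3IP1 and LOXL4. Over the 12498 tested genes with a window, 43.6% held CAGAC on either strand and 3.62% held TGACTCA. Of the 680 windows of genes called at least 2-fold higher, 49.4% held CAGAC and 8.68% held TGACTCA (59 windows). For the 652 windows of genes called at least 2-fold lower the shares were 43.4% and 5.67% (37 windows). A match is a run of letters and not a measured site of binding.

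Of neurotrophic and axonal growth factors, with some of their receptors, 22 were tested, and 2 were at least 2-fold higher and 6 at least 2-fold lower. NTF4 (neurotrophin 4, a ligand of the receptor TrkB) rose from 0.19, 0.194 and 0.361 to 4.39, 4.54 and 3.93 CPM, and 13% of its exon bases are shared with the clone-based gene CTB-60B18.18. BDNF, another TrkB ligand, moved the opposite way, from 76.5, 70.1 and 76.4 to 14.8, 13.8 and 14.9 CPM, a 5.12-fold fall (adjusted p = 9.6e-12). The highest TGFβ library lay far below the lowest untreated one, though absence of overlap was a condition for naming the gene. ARTN, a ligand of the RET receptor complex, fell by 1.90 ± 0.16 and LIF, a cytokine of the interleukin 6 family, rose by 1.39 ± 0.12 on the log2 scale.

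Ligands of other families were fewer. TNFSF10 (TRAIL, a ligand of death receptors), the TNF ligand with the highest level per length, fell from 187, 184 and 195 to 77.6, 80.4 and 83.3 CPM. Of the 13 tested TNF ligands 3 were higher and 3 lower, and the higher count was 1 without TGFβ library 5. In the insulin and IGF axis, 20 genes, 6 rose and 6 fell, 3 and 3 by at least 2-fold. STC1, a secreted glycoprotein hormone placed in that list, rose from a mean of 168 to 372 CPM. IGFBP1, a binding protein of insulin-like growth factors, fell from 3.37 to 1.01 CPM, and IRS1, the adaptor of the insulin receptor, from 94.6 to 43.7 CPM. IGFBP4, the member with the highest length-scaled level, did not pass the test, at 452 and 412 RPKM (reads scaled to gene length and library size, from the authors' table).

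Receptor tyrosine kinases moved both ways, with 7 of 34 tested genes at least 2-fold higher and 6 at least 2-fold lower. CSF1R, the receptor of colony-stimulating factor 1, rose from 7.72, 11.3 and 11.8 to 58.8, 63.9 and 53.7 CPM, 5.72-fold. PDGFRB, a receptor of platelet-derived growth factor, rose from 12.4, 15.4 and 15.3 to 49.3, 52.8 and 48.9 CPM. For both the step between groups exceeded the spread inside each group, though absence of overlap was a condition for naming them. PTK7, a kinase-dead co-receptor of Wnt signalling, rose 2.37-fold. ERBB3, a partner of EGFR and ERBB2, fell from 8.13, 10.2 and 9.05 to 3.06, 2.92 and 2.76 CPM, and MERTK, of the same subfamily as AXL, fell by 1.45 ± 0.10 on the log2 scale. MUSK, the agrin receptor component of the neuromuscular junction, went from a mean of 4.0 to 0.196 CPM. AXL, the most abundant member per length, fell from 169 to 107 RPKM. In all, 13 members rose and 11 fell, and the rises were 8 without TGFβ library 4 or without TGFβ library 5.

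Receptors for lipids, nucleotides, peptides and amines, mostly G-protein-coupled but with ligand-gated P2RX channels among them, split evenly, with 11 of 64 at least 2-fold higher and 11 at least 2-fold lower. The rises included receptors of extracellular nucleotides and lysolipids. P2RY6, a receptor of uridine diphosphate, had 2.3, 2.54 and 2.98 CPM in untreated and 23.7, 24.3 and 21 CPM in TGFβ libraries. LPAR5, a receptor of lysophosphatidic acid, had 0.465, 0.552 and 0.576 against 6.32, 6.53 and 6.71 CPM. S1PR5 rose by 2.24 ± 0.17 while S1PR1, a receptor of the same lipid, sphingosine 1-phosphate, fell by 2.35 ± 0.27 on the log2 scale. The orphan receptor GPRC5A fell from 355, 382 and 369.9 to 71.9, 74 and 75.4 CPM. ADORA2A, an adenosine receptor, fell from a mean of 12.3 to 1.16 CPM, and 56.8% of its exon bases are shared with the readthrough gene SPECC1L-ADORA2A. F2RL1, a protease-activated receptor and the most abundant per length of the list, rose by 0.27 ± 0.06.

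Of 20 adhesion G-protein-coupled receptors 4 rose and 5 fell. The 3 that fell at least 2-fold were GPR110, GPR116 and GPR126, now named ADGRF1, ADGRF5 and ADGRG6. GPR116, the most abundant per length, had 911, 831 and 836 CPM without and 399, 395 and 404 CPM with TGFβ. GPR126 fell from a mean of 109 to 51.6 CPM, and CELSR1, a planar polarity cadherin of the family, rose from 11.8 to 22.1 CPM. Of 33 G-protein subunits and cyclases 9 rose and 6 fell: GNG11, a gamma subunit, fell 2.21-fold and GNA15, an alpha subunit, rose 1.75-fold. Among the 15 regulators of G-protein signalling, RGS10 rose 1.89-fold and RGS3 fell 1.84-fold.

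Cytokine receptors fell more often than they rose at the 2-fold level, with 9 of 43 at least 2-fold lower and 1 at least 2-fold higher (2 without untreated library 2). CSF2RA, the alpha chain of the receptor of granulocyte-macrophage colony-stimulating factor, fell from 53.5, 49.4 and 49.9 to 7.99, 8.3 and 8.49 CPM (log2 fold change -2.62 ± 0.09, adjusted p = 1.3e-11). CRLF2, a chain of the receptor of thymic stromal lymphopoietin, fell from 1.81 to 0.158 CPM, and IL1RN, a soluble antagonist placed with the receptors, from 1.83 to 0.152 CPM, while IL15RA rose 1.7-fold. The signal transducer IL6ST, the most abundant per length, did not pass the test (52.9 and 55 RPKM). The 4 TNF receptors past 2-fold fell: NGFR, TNFRSF1B, TNFRSF21 and FAS. A member at least 2-fold higher joined them without TGFβ library 5, TGFβ library 6 or untreated library 1 (1 in each case). TNFRSF21 (death receptor 6) had 170.2, 179.6 and 175 CPM without and 81.1, 78.5 and 80.6 CPM with TGFβ, and TNFRSF1B had 11.8, 17.7 and 17.3 against 3.44, 3.57 and 3.03 CPM. Another 9 of the 22 TNF receptors rose by less than 2-fold, led by TNFRSF19 and by TNFRSF12A, the receptor of TWEAK (59.2 to 112 CPM). Among 38 Toll-like and NOD-like receptors and adaptors 7 were at least 2-fold higher, among them NLRP3, the sensor of an inflammasome (0.971 to 3.13 CPM), and the kinase IRAK2, while TLR3 fell 2.09-fold. In that list 3 members were at least 2-fold lower, and 1 without untreated library 2.

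**Figure D2:**
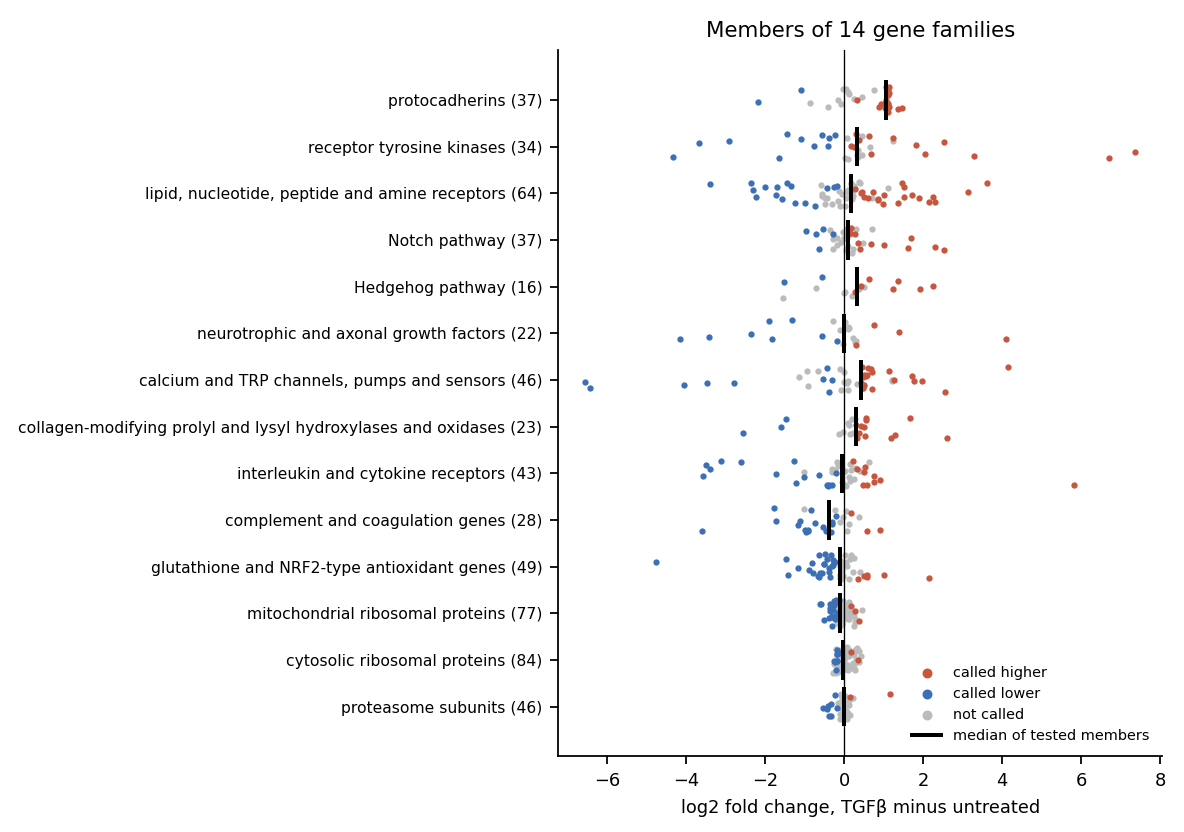
Log2 fold changes of the tested members of 14 gene families (number tested in brackets), each point a gene coloured by its call and each black bar the median of the tested members. Protocadherins centre near 1, complement and coagulation genes lie mostly below 0, and ribosomal and proteasome genes stay close to 0 apart from PSMD2.

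Inside the cell, phosphoinositide signalling genes rose at least 2-fold in 4 of 54 cases and fell so in 1 (2 without TGFβ library 6 or untreated library 1). PIK3CD, the catalytic delta subunit of phosphoinositide 3-kinase known mainly from leukocytes, rose from 23, 29 and 29.3 to 147, 149.8 and 125 CPM, 5.18-fold. The inhibitor PIK3IP1 described above rose in the same libraries. PIK3C2B, a class II enzyme, fell from 8.19 to 2.36 CPM. Receptor-type tyrosine phosphatases also split. PTPRK had 209, 179.8 and 179 CPM without and 643, 635 and 684 CPM with TGFβ, and PTPRG had 179, 170.4 and 179 against 60.7, 58.7 and 60.6 CPM. Their changes were of like size and opposite sign (1.79 ± 0.06 and -1.55 ± 0.06). Of 23 JAK, STAT and SOCS genes 3 rose and 9 fell, and the rises were 5 without untreated library 3. SOCS3, a feedback inhibitor of cytokine receptors, fell from 9.32, 12.4 and 11.8 to 4.05, 3.86 and 3.73 CPM, the 1 member past 2-fold, joined by 1 rise past 2-fold without untreated library 3. PRKCE, a protein kinase C, fell by 1.95 ± 0.07 and DGKA, a diacylglycerol kinase, rose by 1.54 ± 0.06.

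The Notch pathway, in which membrane-bound ligands on one cell activate receptors on its neighbour, had 5 of 37 tested genes at least 2-fold higher and none at least 2-fold lower (1 without TGFβ library 4 or untreated library 1). JAG1, a ligand, rose from 35.5, 37.6 and 37.3 to 213, 209.6 and 211 CPM, 5.74-fold (log2 2.52 ± 0.04, adjusted p = 3.3e-14). LFNG, a glycosyltransferase that modifies the receptors, rose from 7.74, 10.5 and 10.6 to 48.8, 51.7 and 42.4 CPM, and HES1, a target and transcriptional repressor, from 2.71, 3.29 and 2.49 to 8.85, 9.92 and 8.68 CPM. Separation of the groups was a condition for naming these 3 genes. The receptor NOTCH4, from 0.436 to 1.35 CPM, and the NUMB relative NUMBL, from 9.6 to 19.2 CPM, made up the 5. In all 13 members rose and 5 fell (3 without untreated library 2), with a median of 0.10. The falls included DTX3L, a ubiquitin ligase of the Deltex family, at -0.63 ± 0.07.

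In the Hedgehog pathway 4 of 16 genes were at least 2-fold higher and 1 at least 2-fold lower (2 without TGFβ library 4 or untreated library 1). PTCH1, the receptor and a classical target of the pathway, fell from 25.5, 26.4 and 25.1 to 9.7, 8.21 and 8.84 CPM. HHIP, a surface protein that binds the ligands and is likewise a known target, rose from 1.64, 1.31 and 1.53 to 7.32, 6.84 and 7.21 CPM, and GLI2, an effector transcription factor, from 6.68, 7.37 and 7.68 to 20.2, 19.6 and 16.3 CPM. GLI1, another effector and target, rose from 0.0763 to 0.293 CPM. Genes known as targets of the pathway thus moved in both directions.

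**Figure D3:**
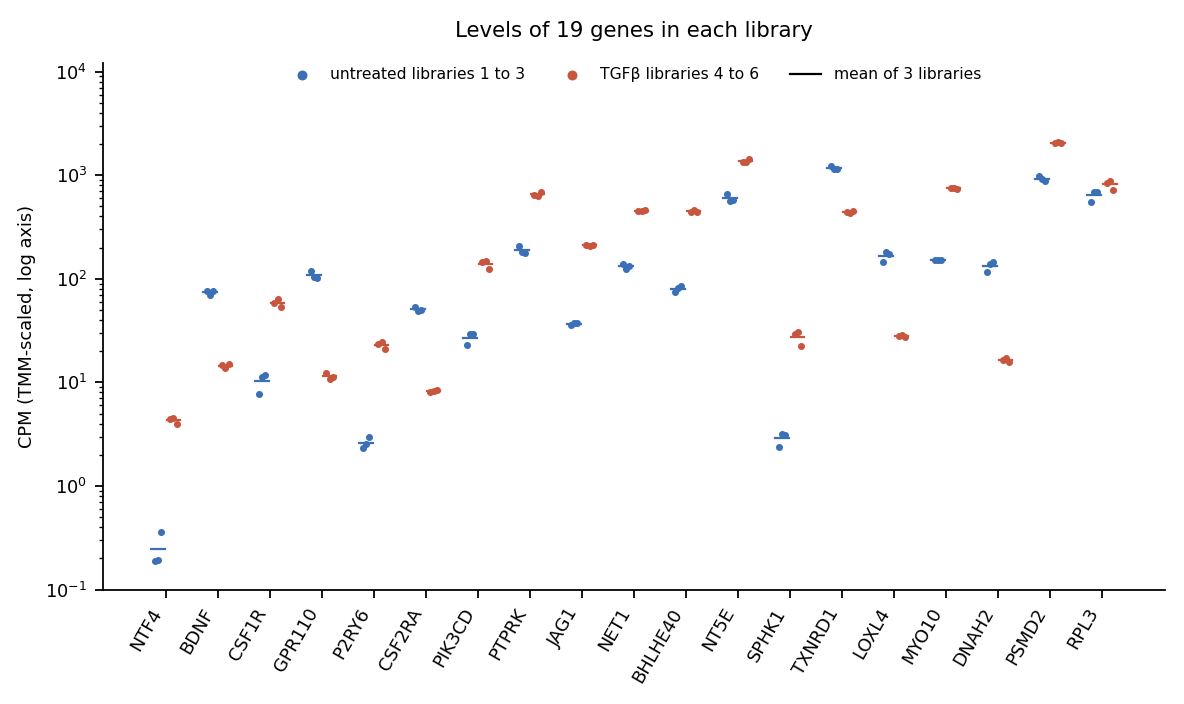
Level of 19 genes of the families in each of the 6 libraries, in CPM on a log axis, with untreated libraries in blue, TGFβ libraries in red and a line at the mean of 3. The groups are apart in every gene shown, by the least in RPL3, where untreated libraries reach 688 CPM and TGFβ libraries start at 725 CPM. No overlap of the groups was among the conditions for naming rises and falls.

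Of 380 small GTPase and trafficking genes 11.1% were past 2-fold, against 10.9% of all tested genes, and 54.5% were called, against 38.6%. RASGRP1, an exchange factor that activates Ras, rose from 0.57, 0.523 and 0.449 to 11.5, 12.7 and 13.2 CPM. RRAD, a Ras-like GTPase that inhibits calcium channels, rose from 2.84, 4.44 and 5.09 to 63.2, 62.6 and 44.7 CPM, with TGFβ library 6 the lowest of its group. RALB, a Ral GTPase and the most abundant per length of the Ras list, rose from 87.3, 78.5 and 78 to 358, 361 and 362 CPM (4.44-fold). Of the 57 genes of that list 6 were at least 2-fold higher and 3 at least 2-fold lower.

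Other regulators of small GTPases also divided. NET1, a guanine nucleotide exchange factor, rose from 140.2, 125 and 132 to 447, 454 and 466 CPM, 3.44-fold, and DOCK10, another exchange factor, from 4.14 to 15.9 CPM. PLEKHG4, of the same activity, fell from 19.7 to 2.27 CPM. Among the GTPase-activating proteins ARHGAP29 fell from a mean of 276 to 101 CPM, and ARHGAP32 rose from a mean of 123 to 349 CPM. RAB GTPases of vesicle transport changed less, with none of 53 at least 2-fold higher (1 without untreated library 2) and RAB17 and RAB27B at least 2-fold lower (-2.66 ± 0.18 and -1.15 ± 0.10). Their TBC-domain inactivators had 6 of 35 at least 2-fold lower, led by TBC1D8 (10.2 to 2.14 CPM), and 1 at least 2-fold higher, TBC1D2B. Coat and cargo genes of early secretion (SEC, COP and cargo receptor genes) had 16 of 54 higher and 8 lower, with 1 past 2-fold, SEC14L2, a lipid-transfer gene caught by its SEC symbol.

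Of 702 members of transcription factor families 8.4% were past 2-fold, against 10.9% of all tested genes, and the families differed. The many ZNF-numbered genes had 2.16% past 2-fold, while nuclear receptors had 29%, basic helix-loop-helix factors 27.3%, homeobox factors other than HOX 23.6% and forkhead genes 20%. BHLHE40, a basic helix-loop-helix repressor of the circadian clock, rose from 74.7, 82 and 85.2 to 443, 457 and 446 CPM, 5.57-fold (adjusted p = 2.9e-13). NR2F2, an orphan nuclear receptor, fell from 119, 126 and 124 to 37.4, 36.3 and 38.3 CPM. Both were tightly grouped within treatments, and absence of overlap was a condition for naming them. ELK3, an ETS repressor that is the most abundant ETS gene per length, rose from 130.0, 115 and 122 to 293, 300.4 and 315 CPM, and ELF3, an epithelial ETS factor, fell by 2.13 ± 0.13 on the log2 scale.

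Nuclear receptors fell at least 2-fold in 7 of 31 cases and rose so in 2 (1 without TGFβ library 5 or untreated library 1). The rises were ESR2, the second estrogen receptor, from 0.431 to 4.49 CPM, and RARA, a retinoic acid receptor, 2.14-fold. THRB, a thyroid hormone receptor, and NR3C2, the mineralocorticoid receptor, fell from 2.48 to 0.174 and from 8.05 to 2.49 CPM. FOXP1, a forkhead repressor, rose from 45.9, 41.6 and 42 to 113, 117 and 126 CPM, and FOXQ1, a forkhead factor of epithelial tumours, fell from 8.37 to 2.49 CPM. FOXS1 was close to 0 in untreated libraries (0.00646 CPM) and had 2.49 CPM with TGFβ. SOX4 rose 4.07-fold and SOX9 fell 2.07-fold, the 2 SOX genes called of 6 tested, with 2 falls in place of 1 without untreated library 1. The SRF cofactor MKL1 (current symbol MRTFA) rose 2.37-fold, and CEBPD fell 3.42-fold. Among 22 core clock genes ARNTL and PER2 rose 2.35-fold and 2.02-fold beside BHLHE40, and DBP fell 2.33-fold. The 462 ZNF-numbered genes held 64 higher and 70 lower, together 29% of the members against 38.6% of all genes, and the counts were 42 and 43 without TGFβ library 4, with 46 lower without TGFβ library 5 or untreated library 1.

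Chromatin genes had few large changes, with 6 of 161 at least 2-fold higher and none at least 2-fold lower. In single omissions 1 chromatin remodeller was at least 2-fold lower without TGFβ library 4, untreated library 1 or untreated library 3, and no deacetylase was at least 2-fold higher without untreated library 1. The 6 were KDM6B and KDM7A, demethylases of histone H3, HDAC5, a class II deacetylase, ARID3A and ARID5A, AT-rich interaction domain factors, and PRDM16. KDM6B rose from 5.27, 7.74 and 8.03 to 21.2, 22.4 and 18.6 CPM and KDM7A from 21.2, 20.5 and 22 to 48.9, 47.1 and 49.6 CPM. Of the 23 histone demethylases 11 rose and 4 fell, and the falls were 1 without TGFβ library 4 and 2 without TGFβ library 5. EZH2, the methyltransferase of Polycomb complex 2, fell by 0.47 ± 0.06 and MECOM by 0.73 ± 0.07 on the log2 scale.

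On the cell surface, protocadherins had the highest median of the 96 families, 1.05 on the log2 scale. These homophilic adhesion receptors lie mostly in 3 clusters. Genes of the alpha cluster share their last exons, as do those of the gamma cluster, so counts of such members are not independent. Of 33 clustered members 22 rose and none fell, with a median of 1.06. Of 4 members outside the clusters PCDH1 rose from 15 to 41.2 CPM, and PCDH7 and PCDH18, both under 1 CPM, fell. The family's falls were 1 without TGFβ library 5, untreated library 1 or untreated library 3, and 4 without untreated library 2. Among immunoglobulin adhesion molecules PVRL1 (nectin 1) rose from 8.06, 9.38 and 8.56 to 51.6, 49.8 and 47.3 CPM, and CXADR, the coxsackievirus and adenovirus receptor of tight junctions, fell from 33.8, 31.2 and 32 to 8.5, 9.27 and 9.95 CPM. MXRA8 rose 3.0-fold. This list had 5 of 34 at least 2-fold higher (3 without untreated library 1) and 2 at least 2-fold lower.

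Genes of immune recognition at the surface fell in 13 and rose in 8 of 33 cases. NT5E (CD73), the enzyme that makes extracellular adenosine and the most abundant per length, rose from 666, 569 and 576 to 1339, 1330.5 and 1437 CPM. SIRPA, the CD47 receptor, rose from 3.34 to 15.2 CPM, and C10orf54 (current symbol VSIR, the checkpoint protein VISTA) fell from 10.4 to 3.24 CPM, as did ICOSLG, a ligand of a T-cell costimulator, from 22.9 to 10.7 CPM. S100A6 and S100A4, small calcium-binding proteins at high levels, fell from 1326 to 844 and from 503 to 296 CPM, while S100A11 rose from 281 to 481 CPM. Of 11 tested annexins 1 was at least 2-fold higher and 2 at least 2-fold lower. The lower count was 1 without TGFβ library 4, TGFβ library 6 or untreated library 3. ANXA8, a calcium-dependent membrane-binding protein, rose 3.76-fold and ANXA3 fell 1.77-fold. The tetraspanin CD151, a partner of laminin-binding integrins, rose from 167 to 328 CPM.

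Enzymes and carriers of surface glycans changed in 67% of 115 tested cases against 38.6% of all genes, 41 higher and 36 lower. SDC1, a heparan sulfate core protein, rose from 44.7, 53.2 and 52.3 to 157, 156 and 137 CPM, while SDC4, the most abundant per length of its list, did not pass (151 and 151 RPKM) and SDC2 fell 2.05-fold. HPSE, the enzyme that cleaves heparan sulfate, fell from 22.8 to 6.03 CPM. HAS2, a hyaluronan synthase, rose from 3.88 to 11.2 CPM, and CSGALNACT1, which starts chondroitin sulfate chains, fell from 11.3 to 1.87 CPM. GALNT10, which starts mucin-type O-glycans, rose from 195 to 491 CPM. ST3GAL5, the sialyltransferase that makes the ganglioside GM3, fell from 12.6 to 2.39 CPM, and FUT8, the core fucosyltransferase, rose 1.63-fold.

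Calcium and TRP channels, pumps and sensors had a median of 0.43, with 20 of 46 higher and 9 lower, together 63.0% against 38.6% of all genes. PIEZO1, a mechanically gated channel, rose from 62.2, 98.5 and 99.6 to 202, 209 and 163 CPM, with untreated library 1 and TGFβ library 6 the lowest of their groups. TRPV3, a heat-gated channel, rose from 0.41 to 7.33 CPM. Among potassium channels KCNJ15, an inward rectifier, rose from 8.11, 7.4 and 7.09 to 58, 57.5 and 60.3 CPM. AQP3, a water and glycerol channel, fell from 11.3 to 4.13 CPM.

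In membrane transport as a whole 16.6% of 404 members were past 2-fold. SLC46A3, a lysosomal carrier, rose from 9.37, 9.47 and 9.12 to 57.7, 59.1 and 64.6 CPM, and UCP2, a mitochondrial carrier, fell from 48.1, 63.1 and 55.5 to 15.8, 15.4 and 14 CPM. SLC29A1, the equilibrative nucleoside transporter, rose from 154 to 364 CPM. Glutamate transporter SLC1A3 fell from 22 to 4.22 CPM, and SLC2A1, the glucose transporter most abundant per length of its list, rose by 0.46 ± 0.09. SLC7A5, the most abundant amino acid transporter per length, did not pass (71 and 61 RPKM).

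Complement and coagulation genes had the lowest median of the 96 families, -0.39: 17 of 28 fell and 3 rose, against 20.1% and 18.5% of all genes. The falls spanned complement components, coagulation factors and inhibitors. C3, the central complement component, had 255, 322 and 326 CPM without and 139.8, 141 and 132 CPM with TGFβ. THBD (thrombomodulin), an endothelial-type anticoagulant receptor, had 58.9, 57.4 and 58.4 against 17.1, 17.3 and 18 CPM. F3 (tissue factor), the most abundant per length, fell by 0.32 ± 0.05 on the log2 scale. The 3 rises were in the surface regulators CD59 (373, 343 and 334 to 629, 644 and 695 CPM), CD46 and PROCR, and CD46 missed the threshold without TGFβ library 6 (log2 fold change 0.14). Falls of at least 2-fold numbered 5, or 9 without untreated library 1.

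Lipid mediator enzymes changed in both directions. In the prostaglandin branch PTGS1 (cyclooxygenase 1) fell from 10.5 to 2.16 CPM and PTGES (prostaglandin E synthase) from 31.2, 42.5 and 40.4 to 9.37, 10.5 and 8.48 CPM. ALOX5AP, the activating protein of the leukotriene branch, rose from 1.98, 2.34 and 2.02 to 13.9, 15.2 and 15.5 CPM. Of the 26 enzymes tested 6 rose and 8 fell. Among 40 sphingolipid genes 13 rose and 13 fell. SPHK1 was the 1 gene at least 2-fold higher, and UGCG, which makes glucosylceramide from ceramide, fell from 431, 389.8 and 393 to 162, 168 and 181 CPM. PPAP2B (current symbol PLPP3), a lipid phosphatase of lysophosphatidic acid, fell from 27.7 to 6.09 CPM.

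Antioxidant genes of the glutathione and NRF2 type fell in 24 of 49 cases and rose in 6, against 20.1% lower and 18.5% higher of all genes. TXNRD1, the cytosolic thioredoxin reductase, fell from 1228, 1143 and 1138 to 439, 431 and 447 CPM, and GSR, glutathione reductase, from 30.7, 28.8 and 28 to 10.5, 10.1 and 10.6 CPM. HMOX1, heme oxygenase 1, which is often counted with the same genes, rose from 9.15, 12.3 and 11.9 to 49.9, 51.5 and 45.8 CPM. FTL, the ferritin light chain and most abundant per length of the list, did not pass (1623 and 1469 RPKM). AKR1C1, an aldo-keto reductase with near-identical copies, rose from 15.9 to 52.7 CPM, so part of its counts may belong to AKR1C2, which rose as well. CYP1A1 and CYP1B1, cytochromes of aryl hydrocarbon metabolism, fell 2.95-fold and 2.01-fold. MT2A, a metallothionein, rose from 97.3 to 257 CPM.

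In central metabolism most changes were under 2-fold. Of 37 genes of the tricarboxylic acid cycle and its feeders 3 rose and 13 fell, or 5 rose without TGFβ library 6 and 8 fell without the pair of libraries that stood apart. The rises included ACLY, which makes cytosolic acetyl-CoA (332 to 655 CPM), and IDH3G, a dehydrogenase subunit that missed the threshold without untreated library 1 (log2 fold change 0.30), TGFβ library 4 or TGFβ library 5 (0.42 in both). Fatty acid oxidation genes fell in 16 of 50 cases (10 without TGFβ library 4) and rose in 7, with PLIN2, a lipid droplet protein, falling from 103 to 51.4 CPM. ODC1, the first enzyme of polyamine synthesis, rose from 166 to 276 CPM. Collagen-modifying enzymes rose in 12 of 23 cases and fell in 3, together 65.2% against 38.6% of all genes. P4HA3, a prolyl hydroxylase, rose from 2.19, 1.98 and 1.78 to 12.4, 11.9 and 12 CPM and LOX, lysyl oxidase, from 98, 106 and 112 to 322, 325 and 354 CPM. The falls were LOXL4, shown above, COLGALT2 and LEPREL1 (current symbol P3H2), so oxidases of 1 family moved in opposite directions.

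Among motors and filaments MYO10, a myosin of filopodia and the most abundant unconventional myosin per length, rose from 153, 152 and 152 to 745, 751 and 738 CPM, 4.88-fold (adjusted p = 1.4e-13). TUBA4A, an alpha-tubulin, rose from 64.3, 77.1 and 78.7 to 353, 374 and 332 CPM, and 15.4% of its exon bases are shared with STK16. TUBB, the most abundant tubulin per length, did not pass (874 and 833 RPKM). MAP2, a neuronal microtubule-associated protein, fell from 2.21 to 0.231 CPM, and STMN3, a microtubule-destabilising protein, from 18.6 to 4.71 CPM. The septin SEPT4 fell from 3.2 to 0.843 CPM. Ciliary and BBS genes had 9 of 66 higher and 18 lower, none past 2-fold. Together these were 40.9% of that list, near the 38.6% of all genes.

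In protein turnover and folding 12 of 351 members were at least 2-fold higher and 7 at least 2-fold lower. PSMD2, a regulatory subunit of the proteasome, had 978, 923 and 873 CPM without and 2064, 2091 and 2057 CPM with TGFβ, a 2.24-fold rise (log2 1.16 ± 0.05, adjusted p = 1.2e-10). None of the other 45 tested proteasome genes was called at least 2-fold changed. PSMF1, an inhibitor, was the other one called higher, by 0.16 ± 0.05 (0.15 to 0.16 and no longer called without untreated library 3, TGFβ library 4 or TGFβ library 5), and 8 fell, among them the interferon-inducible activator PSME1 (-0.42 ± 0.04). The higher count ranged from 1 without TGFβ library 4, TGFβ library 5 or untreated library 3 to 5 without TGFβ library 6. FBXO32 (atrogin 1), a substrate adaptor of a ubiquitin ligase, rose from 33.2 to 108 CPM, and KLHL4, an adaptor of another ligase, fell from 44.2 to 15.6 CPM. DNAJB2, a cochaperone, rose from 22.9 to 85.3 CPM, and BAG1, an exchange factor of HSP70, fell from 59.9 to 29.9 CPM.

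Of 84 cytosolic ribosomal protein genes 2 rose and 9 fell, with none past 2-fold and a range of -0.27 to 0.42 on the log2 scale. RPL3 was the larger of the rises, at 549.6, 688 and 686 CPM without and 849.7, 874 and 725 CPM with TGFβ, and it missed the threshold without untreated library 1 (log2 fold change 0.25) or TGFβ library 5 (0.30). These counts depended on single libraries, with 25 falls without untreated library 3, 3 without untreated library 1, TGFβ library 4 or TGFβ library 5, and rises from 0 without TGFβ library 5 to 9 without TGFβ library 6. Mitochondrial ribosomal protein genes fell in 21 of 77 cases and rose in 3, all by less than 2-fold, among them MRPS6 (-0.60 ± 0.05). Called members were 31.2% of that list, against 38.6% of all genes. Of 25 splicing regulators 11 fell (7 without TGFβ library 5) and 2 rose, together 52.0% against 38.6% of all genes. RBM47, an epithelial splicing and editing factor, fell from 32.6 to 8.59 CPM, RBM24 from 6.64 to 1.61 CPM, and MBNL2 1.72-fold. SR proteins, hnRNPs, helicases and tRNA synthetases had no member past 2-fold.

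Long non-coding RNAs with LINC symbols rose at least 2-fold in 26 of 173 cases and fell so in 15, together 23.7% of the members against 10.9% of all genes. LINC00313 rose from 0.887, 1.23 and 1.09 to 10.8, 10.1 and 8.3 CPM. LINC00271 fell from 4.75 to 1.09 CPM. Of 27 small RNA host genes MIR22HG, which carries miR-22, rose from 36.8 to 78.2 CPM.

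Outside the families the highest rises included C4orf26 (current symbol ODAPH, an enamel matrix phosphoprotein), which had 5.61, 5.9 and 5.97 CPM without and 175, 176 and 192 CPM with TGFβ. PDGFB, a chain of the ligand of PDGFRB, rose from 0.665, 1.01 and 1.02 to 29.9, 29.9 and 26.7 CPM, in the same libraries in which that receptor rose. SH2D2A, an adaptor of T cells, GPA33, an intestinal surface antigen, and ATG9B, an autophagy membrane protein, rose from means of 0.165, 0.237 and 0.145 to 6.36, 7.41 and 7.0 CPM. CGB8, a beta subunit gene of chorionic gonadotropin with near-identical copies, rose from 0.0815 to 15.3 CPM, so that its counts cannot be assigned to 1 copy. Among the falls, SAA2, an acute phase protein with a close copy, had 178, 205 and 194 CPM without and 14.1, 13.6 and 13 CPM with TGFβ, and 12% of its exon bases are shared with SAA2-SAA4. DMBT1, a secreted scavenger receptor, had 70.1, 80.3 and 76.6 against 4.74, 4.08 and 3.57 CPM. FST (follistatin), which binds and neutralises activins, had 29.3, 30.7 and 29.9 against 2.05, 1.98 and 1.81 CPM. VIPR1, a receptor of vasoactive intestinal peptide, CNKSR3, a scaffold of Ras signalling, PLEKHS1 and SPINK4 fell from means of 17.3, 18.7, 11.2 and 13.9 to 0.866, 1.31, 0.265 and 0.962 CPM.

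The same treatment step in the presence of alisertib was measured on 6 other libraries. There 7901 genes were called (38.4%), 19.4% higher and 19.0% lower. Of the 7940 genes called without alisertib, 7840 (98.74%) had the same sign with it and 6510 (82.0%) were called in the same direction, which is 82.4% of the calls with alisertib. Of the 2241 called at least 2-fold, 1924 (85.9%) were also called in the same direction. JAG1 rose from 52.4, 51.6 and 50.5 CPM with alisertib alone to 212, 221 and 224 CPM with both agents, MYO10 from 188, 181 and 180.4 to 749.7, 825 and 823 CPM, and PSMD2 from 1178, 1088 and 1153 to 2097, 2134 and 2123 CPM. BDNF fell from 62.9, 62.5 and 64.2 to 17.7, 14.6 and 14.5 CPM and TXNRD1 from 1106, 1133 and 1126 to 531, 475 and 484 CPM. Each of these 5 genes kept its groups apart there too. Without and with alisertib the family medians were 1.05 and 1.23 for protocadherins and -0.39 and -0.28 for complement and coagulation genes. Medians of other families changed more, as for RGS proteins (-0.33 and -0.08), or changed sign, as for S100 proteins (0.22 and -0.14), adhesion receptors (0.19 and -0.07) and HOX genes (0.19 and -0.08). These medians rest on 11 to 20 genes, many of them not called. Of their called members 5 of 6, 7 of 9, 8 of 9 and 2 of 3 were also called in the same direction with alisertib. A difference of the TGFβ effects was called for 1 adhesion receptor and for no RGS, S100 or HOX member.

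The difference of the TGFβ effects with and without alisertib, an interaction term, was called for 58 genes (0.282%), 24 higher (0.117%) and 34 lower (0.165%). In 57 of them the effect was smaller with alisertib. Among the 490 family members past 2-fold, 12 had a called difference, all nearer 0 with alisertib. JAG1 had a difference of -0.43 ± 0.06 on the log2 scale (adjusted p = 0.008), and DCLK1 one of -0.77 ± 0.14 (adjusted p = 0.03). Since members were chosen by the comparison without alisertib, a smaller value in the other libraries is favoured by that choice. The count was not stable: it was 80 higher and 86 lower without untreated library 1, and 4 higher and 15 lower without alisertib library 9.

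**Figure D4:**
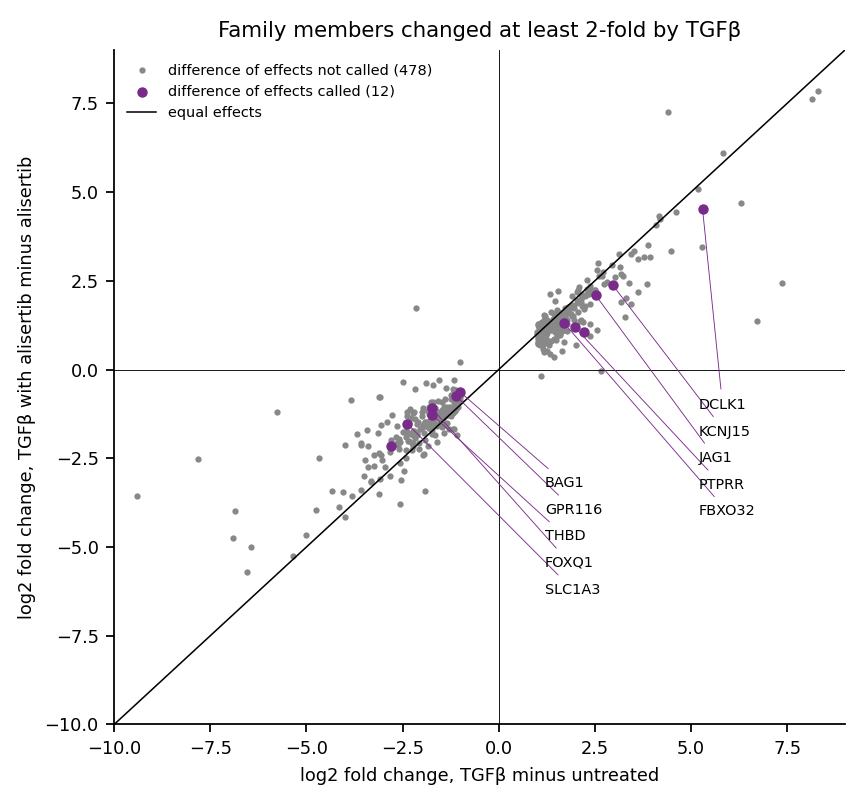
Log2 fold changes of the 490 family members called and changed at least 2-fold by TGFβ, without alisertib on the horizontal axis and with alisertib on the vertical axis, each point a gene and the line equal effects. All but 4 keep their sign, 395 lie nearer 0 with alisertib, and of the 12 members with a called difference those named in the text are labelled.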

How the data were processed

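Total RNA came from the miRNeasy kit and the libraries from TruSeq RNA v2, which keeps no strand, per the labels' protocols, so overlapping and antisense genes cannot be told apart. The submitters' processing notes name bcl2fastq, TopHat, Subread, featureCounts and hg19. Versions are not given in the sources used here. Per gene the deposited table holds the authors' counts and RPKM values and a coding length, per the file headers. Members and gene lists were chosen with earlier results of these data known.

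All 12 libraries entered 1 fit on the counts with edgeR 4.0.16 in R 4.3.3: filterByExpr with a minimum count of 10, TMM scaling and a robust quasi-likelihood test on 8 residual degrees of freedom. SE is the log2 fold change divided by the square root of F. GENCODE v29 gave gene types, GC content, exon sharing and 19518 matched symbols, and 445 pseudogenes were dropped from the families. Exon bases are shared with another gene for over 10% of ADORA2A, ATG9B, CYP1B1, DBP, NTF4, RARA, SAA2, TUBA4A and TUBB. Whether libraries stem from separate cultures is not in the labels. The p-values therefore reflect only the spread among these libraries, which may be technical.

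Named genes were, per family, up to 3 called rises and 3 falls with at least 1 CPM in the higher group and no overlap of groups, the most abundant member per length and any member of a count of 5 or fewer. Outside families they were the 8 highest and 8 lowest at 5 CPM or more. The text gives a selection of these, and some results are not reported here. Promoter windows were taken from autosomes other than chromosome 8. Tested on simulated data for this comparison (19782 genes, 50 changed per size), the fit recovered 4%, 52%, 88% and 94% of log2 changes of 0.25, 0.5, 1 and 2, with 4 false calls. The simulated spread was the same for every gene, and far fewer genes were changed than were called here. These shares therefore check the fit and do not measure its sensitivity in the real libraries. Alternatives were other scalings, no filter, DESeq2 1.42.0, GC and length offsets, a covariate and each library left out.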

Additional observations from a re-analysis of the deposited data

Results flagged for a closer look

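The TGFβ effect differed with and without alisertib by the interaction term of edgeR's quasi-likelihood test (adjusted p under 0.05 over all genes) for the following genes among those named in these texts. Differences are on the log2 scale, with alisertib minus without. Genes that TGFβ raised had negative differences: PTPRR -0.79, DCLK1 -0.77, KCNJ15 -0.57, C4orf26 -0.54, JAG1 -0.43 and FBXO32 -0.41. Genes that TGFβ lowered had positive differences: SLC1A3 0.86, CNKSR3 0.81, FOXQ1 0.66, THBD 0.46, BAG1 0.36 and GPR116 0.35. In each of them the effect with alisertib was the smaller in size and kept its sign.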

How the results depend on the processing

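No paired analysis was possible because the replicate numbers run from 1 to 12 over the libraries and no number is shared between groups. The counts of genes called by TGFβ, 3796 higher and 4144 lower, stayed within 1.5 times under every setting tried, from 3094 to 5347 higher and from 3417 to 5192 lower. Which direction held more calls did turn: higher calls were the fewer in the fit reported (47.8% of calls) and with upper-quartile scaling (41.1%), and the more with a GC and length offset (4974 against 4323), a covariate for the libraries that stood apart (5347 against 5192) and DESeq2 (4066 against 4011). The difference of effects with and without alisertib was least stable. Against 24 higher and 34 lower it called 50 and 55 with no filter on low counts, 141 and 171 with the offset, 184 and 198 with the covariate, 479 and 265 without the libraries that stood apart, and 69 and 110 with DESeq2. Leaving out 1 library at a time gave 4 to 80 higher and 12 to 86 lower. The cause was not tested. Fitting only the groups compared gives no such difference. Of the 207 called genes written in these texts, 201 were called for TGFβ against untreated cells under every setting that tested them. None changed sign, and the other 6 missed the threshold under at least 1: CD46, IDH3G, PCDH7, PCDH18, PSMF1 and RPL3. Genes were named mainly for large changes without overlap in these same libraries, so keeping their calls was favoured by that choice. Changes of 0.5 and below on the log2 scale were often missed in simulated data. That simulation gave every gene the same spread and changed few genes, so it does not give the sensitivity of this comparison.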
